A study of Bos taurus with 12 samples.

Results

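Core autophagy genes are those whose products build the autophagosome, the double membrane that encloses cell material and brings it to the lysosome. A set of 35 such genes was chosen by symbol and matched through their Entrez gene IDs to the 30336 gene IDs of each count file. All 35 were found, had at least 1 read in every library, and passed the filter on low counts that left 13212 genes for testing. Puncture biopsies of liver came from 12 Holstein heifer calves aged 4 d. The dams of 6 had received a control close-up diet (CON), and the dams of the other 6 that diet plus methionine protected from rumen breakdown by ethyl cellulose (MET) for the final 28 d before calving. The calves themselves were managed alike after birth, and each library was, by its label, polyadenylated RNA of one calf, read from one end and counted by strand. The comparison asks whether the diet of the dam in late gestation left a difference in the mRNA abundance of the machinery of autophagy in the liver of the newborn.

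In autophagy, a kinase complex built around ULK1 starts the process, and a lipid kinase complex built around BECN1 marks the membrane on which the autophagosome forms. A conjugation system then fixes small proteins of the ATG8 family to that membrane, where receptors such as SQSTM1 link them to cargo. In the newborn liver, autophagy is known as a source of amino acids and glucose between the loss of placental supply and regular feeding, and its rate is set to a large extent by protein modification and breakdown, which mRNA does not show.

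The libraries held 8277789 to 10397604 reads assigned to genes, and the 35 genes together took 0.153 to 0.220% of them. Expression is given as CPM, reads scaled to a common library size after TMM normalization. A count of 3 reads corresponded to 0.289 to 0.362 CPM, and the lowest count of any of the 35 genes was 8 reads, for ATG5. The libraries of CON calves 1 and 4 differed from each other by little more than counting noise (chi-square per gene of 1.23 or 1.31), as did those of MET calves 1 and 3, against 23.3 to 122 for the other 64 pairs of libraries. Although the labels give different calves, each of these pairs was therefore counted as 1 sample, written CON 1+4 and MET 1+3. By the labels, the second index of CON 1 was that of MET 1 and the second index of CON 4 that of MET 3, and whether libraries were exchanged or prepared more than once is not given in the sources used here, so it is not known which calf each of these samples stands for. Means ± SD are over 5 samples per diet, and each test was run on the 12 libraries and repeated on the 10 samples. The former enters the near-identical libraries separately, which makes its P values too small wherever they are one library. The first index was one and the same in all CON libraries and another in all MET libraries, so that diet and index cannot be told apart in any gene. The tissue carried the markers of liver: all 8 hepatocyte genes, ALB included, were counted in every library, and the summed level of 6 skeletal muscle genes was at most 0.286 CPM in a library.

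To compare levels between genes, CPM was divided by the annotated exon length in kilobases (FPKM). By this measure the mean levels spanned 299-fold. GABARAP, a member of the ATG8 family, was highest at 271 FPKM, followed by its relative GABARAPL1 at 114 FPKM, the cargo receptor SQSTM1 at 93.2 FPKM, the ATG8 protein gene MAP1LC3A at 62.8 FPKM and the cargo receptor NBR1 at 48.3 FPKM. These 5 lay above the 90th percentile of all genes tested. The family was not high as a whole, since MAP1LC3B was at 8.14 FPKM, below ULK1 and BECN1. At the other end of the range, ATG14 (2.28 FPKM), ATG10 (1.86 FPKM) and ATG7 (0.907 FPKM) lay below the 30th percentile, and 24 of the 35 genes were above the median of all genes. ATG7 had an annotated exon length of 10610 bases and ATG5 of 592 bases in these files, and a per-length level moves with such a length. Reads that matched several places were not counted, so genes with near-identical stretches, such as those within the ATG8 family, can be undercounted.

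**Figure D1:**
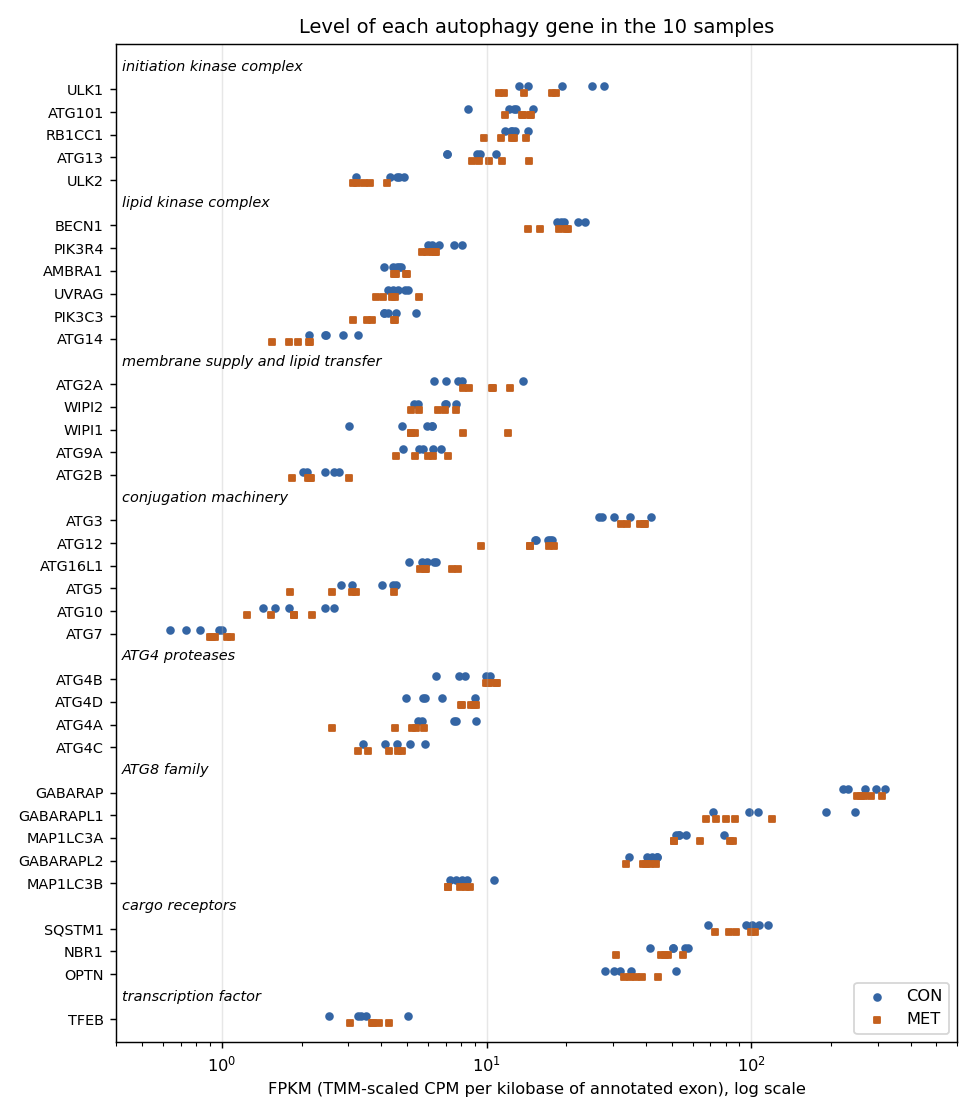
FPKM of each of the 35 genes (log axis), with circles for the 5 CON samples and squares for the 5 MET samples, in groups by role. The ATG8 family, apart from MAP1LC3B, and the cargo receptors lie to the right of the kinase complexes, with GABARAP highest and ATG7 lowest, and the circles and squares of every gene overlap in range.

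Of the 35 genes, 1 passed an FDR of 0.10 over the 12 libraries (edgeR quasi-likelihood test with Benjamini-Hochberg adjustment over all genes tested), against 4.41% of all genes tested. This was ATG14, which was lower in MET. An unadjusted P value of at most 0.05 was reached by 7 of the 35, or 20.0%, against 20.5% of all genes. ATG4B and ATG4D were greater in MET (10.2% of all genes had such a P value with a greater level), and ULK1, ULK2, ATG14, ATG4A and GABARAPL1 were lower (10.4% of all genes). Over the 10 samples, 0 of the 35 passed an FDR of 0.10 in edgeR and their lowest FDR was 0.195 (0% of all 13242 genes passed). There 5 of the 35 (ULK2, ATG14, ATG4A, ATG4D and GABARAPL1) reached an unadjusted P value of at most 0.05, against 16.3% of all genes. With 1 library left out, the unadjusted P value stayed at 0.05 or less in 12 of 12 fits for ATG14, ULK2 and GABARAPL1, in 11 for ATG4A, in 6 for ULK1 and ATG4B and in 2 for ATG4D. The sample CON 1+4, which holds 2 of the 6 CON libraries, was the highest of the 10 in 10 of the 35 genes (ULK1, ATG101, RB1CC1, ATG14, ATG2A, MAP1LC3B, GABARAP, GABARAPL1, SQSTM1 and NBR1), a larger share than the 10.9% of all genes in which it was highest, and its mean log2 CPM over the 35 was 4.89 against 4.68 to 4.82 in the other 9. Without it, in a fit of 9 samples chosen after seeing the data, 4 of the 35 reached an unadjusted P value of at most 0.05 (ATG14, ATG2A, ATG4A and ATG4D), against 15% of all genes, and 0 passed the FDR. ULK2 and GABARAPL1 then had unadjusted P values of 0.096 and 0.126. For none of the 35 did the CON and MET samples fall into ranges that do not overlap, against 3.72% of all genes. The shares of the autophagy genes that passed the FDR or the unadjusted P value were thus near those of the genes at large, and no change with diet particular to them was found.

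The median log2 fold change (MET minus CON) of the 35 genes was −0.06, that of all genes −0.003, and 14 of the 35 were numerically greater in MET (49.6% of all genes were) and 21 lower. The lean changed with a correction for gene length. Across all genes tested, longer genes were lower in MET (Spearman's rho of −0.31 between log2 fold change and exon length, across genes, which are not independent replicates). With that trend removed, the median of the 35 was 0.01 (0.019 over all genes), and 18 were greater (7024 of all 13212 genes were). The genes with an unadjusted P value of at most 0.05 changed too. There were again 7, against 17.8% of all genes, but 3 were shared (ATG14, ATG4A and GABARAPL1). ULK1, ULK2, ATG4B and ATG4D no longer reached it, and ATG13, AMBRA1, ATG5 and ATG7 did. The 95% confidence interval of the fold change lay within 2-fold in either direction for 34 of the 35 genes over the 12 libraries, with GABARAPL1 the exception, and for 32 over the 10 samples, with WIPI1 and ATG4A as further exceptions. Spread among samples of the same diet was modest: the median SD of log2 CPM was 0.230 for the 35 genes and 0.289 for all genes, and 27 of the 35 were below the latter.

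**Figure D2:**
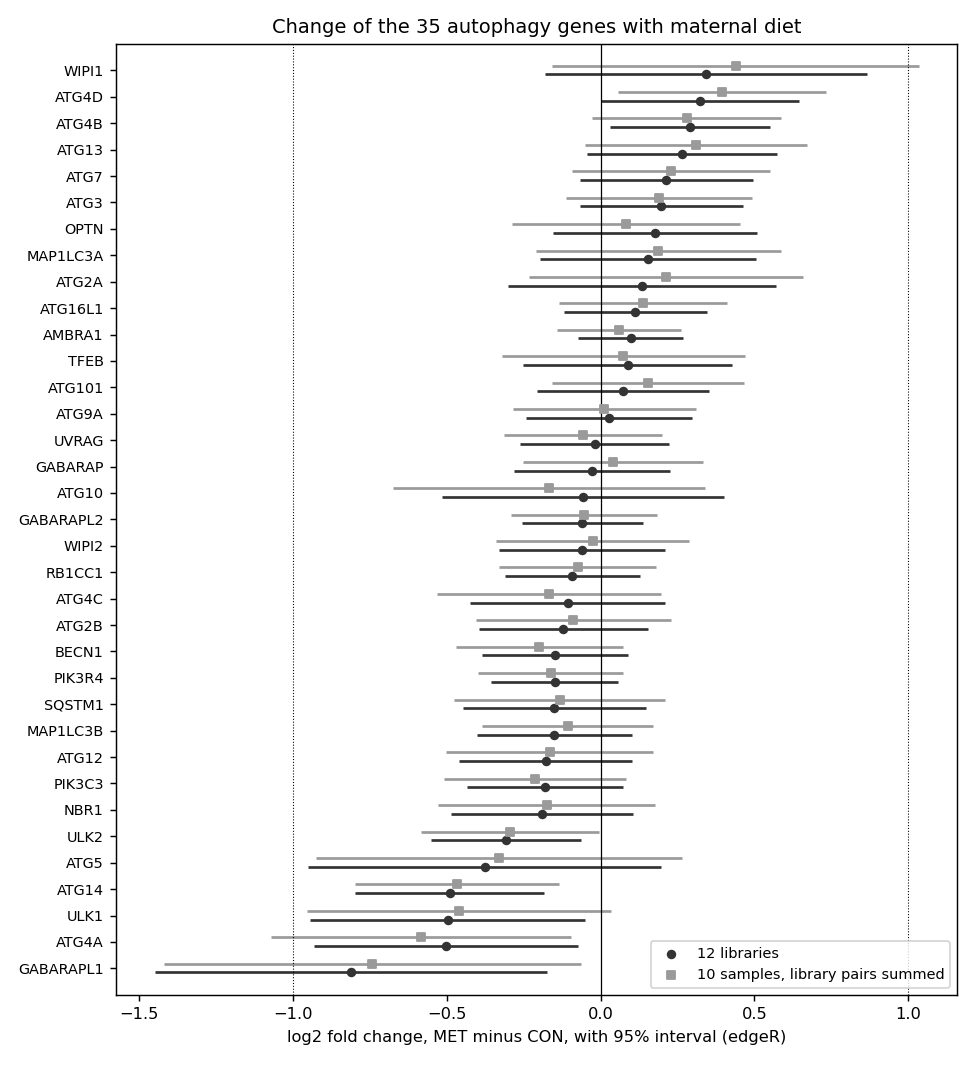
Log2 fold change (MET minus CON) of the 35 genes with 95% confidence intervals from edgeR, over the 12 libraries (dark circles) and over the 10 samples with library pairs summed (grey squares), with dotted lines at a 2-fold change. GABARAPL1 is lowest at −0.81 and WIPI1 highest at 0.34, and most intervals include 0.

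Within the initiation complex, which receives nutrient signals, both kinases had lower means in MET. ULK1 (chr17:46170519-46193467, minus strand, of the assembly UMD 3.1.1 like all positions here), the kinase that starts the process, had 146, 101, 69.3, 131 and 75.2 CPM in the CON samples 1+4, 2, 3, 5 and 6. In the MET samples 1+3, 2, 4, 5 and 6 it had 92.7, 95.6, 58.5, 60.9 and 72.5 CPM. CON 1+4, 2 and 5 were above every MET sample, while CON 3 and CON 6 lay among the MET samples. The mean was 104 ± 33.5 CPM in CON and 76.03 ± 17.4 CPM in MET, with a log2 fold change of −0.50 ± 0.208 (SE) and an FDR of 0.2003 in edgeR over the 12 libraries. With the pairs summed these were −0.46 and 0.337, and with the length trend removed over the 12 libraries the log2 fold change was −0.40 (unadjusted edgeR P value of 0.07195). The exact permutation test over the 10 samples gave P = 0.135. Without CON 1+4, its highest sample, the log2 fold change of ULK1 over 9 samples was −0.31 (unadjusted edgeR P value of 0.190). ULK2 (chr19:34405478-34464012, plus strand), a paralog that can stand in for ULK1, had 28.8, 26.5, 29.9, 28.1 and 19.7 CPM in CON and 22.3, 19.2, 21.2, 19.9 and 25.9 CPM in MET, in the same order of samples. Of its CON samples 4 were above all MET samples, while CON 6 was within the MET range. Its log2 fold change was −0.31 ± 0.114 with an edgeR FDR of 0.155 across libraries, 0.3002 across samples, and an exact permutation P = 0.0714. ULK2 is among the longer of the 35 genes (6147 bases of exon), and with the length trend removed its log2 fold change was −0.18, with an unadjusted P value of 0.131 over the 12 libraries. The partners of the kinases did not pass the test: the log2 fold change was 0.26 for ATG13, which joins the kinase to the complex (0.35 with the length trend removed, unadjusted edgeR P value of 0.0296), 0.07 for ATG101, which stabilizes ATG13, and −0.09 for the scaffold RB1CC1.

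In the lipid kinase complex, ATG14, the subunit that directs the complex to sites of autophagosome formation, fell in the MET calves over the 12 libraries. ATG14 (chr10:68073407-68110299, minus strand, 10 distinct exons) had 13.8, 12.1, 9.04, 10.3 and 10.5 CPM in the CON samples 1+4, 2, 3, 5 and 6. The MET samples 1+3, 2, 4, 5 and 6 had 9.095, 6.54, 7.597, 8.17 and 8.97 CPM. The diets were almost apart: CON 3, the lowest of its diet, lay just below MET 1+3, the highest of the other, and this was the one point of overlap. The mean was 11.2 ± 1.85 CPM in CON and 8.07 ± 1.05 CPM in MET, and the log2 fold change over the 12 libraries was −0.49 ± 0.143, with an edgeR FDR of 0.09499. Over the 10 samples the log2 fold change was −0.47, the FDR 0.195 and the exact permutation test P = 0.0159, where the smallest possible value was 0.00794. Leaving out 1 library at a time kept the FDR at 0.10 or less in 1 of 12 fits (without CON 3), with a highest FDR of 0.179 (without CON 4), and the unadjusted P value at 0.05 or less in all 12. Across these fits the log2 fold change of ATG14 stayed between −0.55 and −0.39, so its direction held while its FDR call did not. Without CON 1+4, over 9 samples, it was −0.37 with an FDR of 0.297.

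The other subunits of the lipid kinase complex did not pass the test. BECN1 (chr19:43479253-43489432, minus strand), the scaffold that binds either ATG14 or UVRAG, had 29.4, 31.4, 37.6, 30.6 and 35.3 CPM in the CON samples, in the order above, and 31.9, 30.1, 32.6, 25.5 and 22.99 CPM in the MET samples. MET 5 and MET 6 were the lowest of all 10, and the other 3 MET samples lay among those of CON. The log2 fold change was −0.15 ± 0.1101 (edgeR FDR of 0.4705, and exact permutation P = 0.135 over the 10 samples). The catalytic subunit PIK3C3 had a log2 fold change of −0.18, its regulatory subunit PIK3R4 of −0.15, UVRAG, which takes the place of ATG14 in the endosomal form of the complex, of −0.02, and AMBRA1, a regulator of BECN1, of 0.10, with FDR of 0.401 or more. AMBRA1 was the steadiest of the 35, with an SD of 0.0823 within the diets on the log2 scale, and with the length trend removed its log2 fold change was 0.20 (unadjusted edgeR P value of 0.0303).

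Of the 5 genes for membrane supply and lipid transfer, none reached an unadjusted P value of 0.05. ATG9A, the scramblase of the vesicles that seed the membrane, had a log2 fold change of 0.03, and the lipid transfer proteins ATG2A and ATG2B had 0.14 and −0.12. WIPI2, which reads the lipid mark and recruits the conjugation machinery, had −0.06. Its relative WIPI1 was numerically the most increased of all 35 at 0.34 ± 0.244, and had 10.9, 10.9, 10.4, 5.32 and 8.405 CPM in CON and 9.38, 9.08, 21.1, 14.3 and 9.07 CPM in MET. Only MET 4 and MET 5 were above the CON range, which left an edgeR FDR of 0.4503.

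The conjugation machinery had no gene among its 6 with an unadjusted P value of at most 0.05 before the length trend was removed. ATG5 (chr9:44166889-44204889, plus strand), which is joined to ATG12 to form the enzyme that attaches ATG8 proteins, was the least counted of the 35, with 1.84, 2.39, 2.63, 1.67 and 2.698 CPM in CON and 1.07, 2.64, 1.84, 1.902 and 1.55 CPM in MET. MET 1+3 was the lowest sample, and the other MET samples lay within or just below the CON range. Its log2 fold change of −0.38 ± 0.267 had an edgeR FDR of 0.448, and the exact permutation test gave P = 0.222. ATG12 had a log2 fold change of −0.18 and ATG16L1, which places the pair on the membrane, of 0.11. The activating enzyme ATG7 had 0.21, the ATG8 conjugating enzyme ATG3 0.20 and the ATG12 conjugating enzyme ATG10 −0.06. With the length trend removed, ATG7, a gene with long annotated exons, had 0.38 (unadjusted edgeR P value of 0.0248, FDR of 0.209). ATG5, with short ones, then had −0.57 (unadjusted edgeR P value of 0.0488, FDR of 0.278).

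The ATG4 proteases, which trim ATG8 proteins before conjugation and release them afterwards, had the largest median size of the log2 fold change among the roles with several genes (0.31, sign disregarded). For ATG4A, ATG4B and ATG4D the unadjusted P value was at most 0.05, but not in one direction, and none passed the FDR. ATG4A (chrX:61017762-61050945, plus strand) had 6.55, 6.79, 10.9, 8.96 and 9.13 CPM in the CON samples 1+4, 2, 3, 5 and 6. The MET samples 1+3, 2, 4, 5 and 6 had 6.42, 6.93, 6.22, 5.37 and 3.09 CPM. CON 3, 5 and 6 were above every MET sample, while CON 1+4 and CON 2 lay among them, and MET 6 was the lowest. The log2 fold change of ATG4A was −0.50 ± 0.2004, with an edgeR FDR of 0.182 across libraries, 0.241 across samples, and an exact permutation P = 0.0318.

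ATG4B (chr3:121162791-121170613, plus strand), the protease with the broadest activity on ATG8 proteins, had 9.23, 7.54, 12.1, 11.7 and 9.75 CPM in CON and 11.8, 12.9, 12.8, 11.6 and 11.96 CPM in MET, in the same order. All 5 MET samples lay in a narrow band at the top of the CON range or above it, into which CON 3 and CON 5 also fell. Its log2 fold change was 0.29 ± 0.121, with an edgeR FDR of 0.198 across libraries, 0.346 across samples, and an exact permutation P = 0.0556. With the length trend removed it was 0.18, with an unadjusted edgeR P value of 0.181. ATG4D (chr7:16279903-16288393, plus strand), a family member with weak activity until it is cleaved, had 17.7, 11.3, 9.72, 11.5 and 13.3 CPM in CON and 17.6, 15.9, 17.8, 17.1 and 15.7 CPM in MET. CON 1+4 was level with the highest MET samples, and the other 4 CON samples were below all of MET. The log2 fold change was 0.32 ± 0.1502, with an edgeR FDR of 0.241 across libraries, 0.249 across samples, and an exact permutation P = 0.0397. Without CON 1+4, in the fit of 9 samples chosen after seeing the data, the log2 fold change of ATG4D was 0.56 with an FDR of 0.192. The value for ATG4D with the length trend removed was 0.31, with an unadjusted edgeR P value of 0.0613. ATG4C, the remaining member, had a log2 fold change of −0.11 (FDR of 0.7204).

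**Figure D3:**
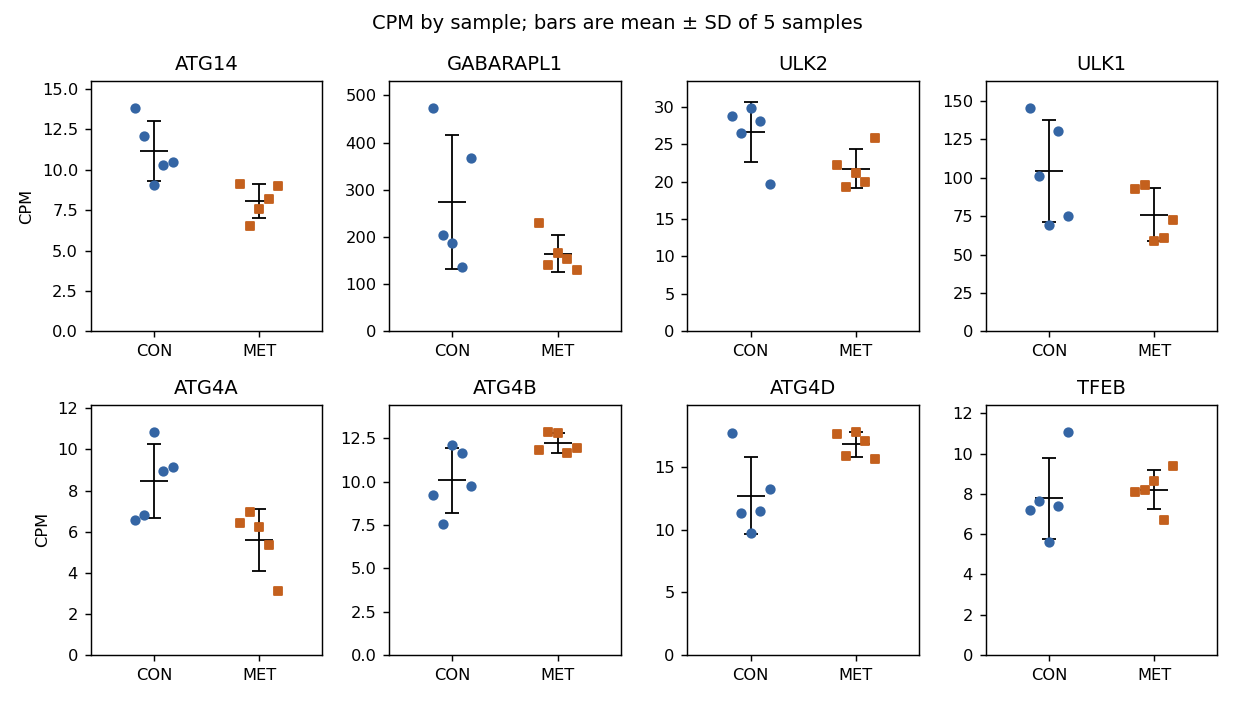
CPM by sample (linear axes from 0) for the 7 genes with an unadjusted P value of at most 0.05 over the 12 libraries, and for TFEB, with circles for CON, squares for MET, and bars for the mean ± SD of 5 samples per diet. Every panel shows some overlap of the diets, which in ATG14 is between CON 3 and MET 1+3 alone, and the MET samples of ATG4B and ATG4D lie closer together than those of CON.

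Among the ATG8 family, GABARAPL1 (chr5:100205182-100215034, minus strand), which has also been known as an early estrogen-regulated gene, had the largest fold change of all 35 genes and the largest spread. Its CON samples 1+4, 2, 3, 5 and 6 had 474, 203, 188, 137 and 368 CPM. Its MET samples 1+3, 2, 4, 5 and 6 had 229.8, 141, 166, 153 and 129 CPM. The difference in means, 274 ± 141 CPM in CON and 164 ± 39.3 CPM in MET, rested on CON 1+4, which holds 2 of the 6 CON libraries, and CON 6, while the other 3 CON samples lay within the MET range. The log2 fold change was −0.81 ± 0.297, with an edgeR FDR of 0.151 over the 12 libraries. Over the 10 samples it was −0.74 with an FDR of 0.274, and the exact permutation test gave P = 0.143. Without CON 1+4, over 9 samples, the log2 fold change of GABARAPL1 was −0.45.

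The other 4 members of the family had smaller differences, none of which passed the test. GABARAP had 263, 220.0, 182, 243 and 190.0 CPM in CON and 207, 218, 214, 233 and 257 CPM in MET. GABARAPL2 had 41.3, 41.4, 32.5, 39.6 and 37.8 CPM in CON and 38.8, 41.1, 31.5, 37.5 and 36.6 CPM in MET. In both genes the samples of the diets were interspersed, with log2 fold changes of −0.03 and −0.06 and edgeR FDR of 0.926 and 0.753 (exact permutation P = 0.691 and 0.508). MAP1LC3A, which encodes a form of LC3, had 57.3, 85.1, 57.5, 60.98 and 55.9 CPM in CON and 55.2, 92.2, 55.2, 68.8 and 89.6 CPM in MET. Its high samples were CON 2, MET 2 and MET 6, so that they came from both diets. MAP1LC3B, the form most often used as a marker of autophagosomes, had 19.7, 14.96, 13.5, 14.2 and 15.7 CPM in CON and 15.4, 13.3, 14.7, 16 and 13.2 CPM in MET. The log2 fold changes of MAP1LC3A and MAP1LC3B were 0.15 ± 0.164 and −0.15 ± 0.117, with edgeR FDR of 0.631 and 0.494 (exact permutation P = 0.397 and 0.4603).

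Put together on the FPKM scale, GABARAP made up 52.1 ± 6.97% of the family in CON and 57.9 ± 3.26% in MET, and GABARAPL1 26.6 ± 9.67% and 18.1 ± 4.69% (SD, n = 5 samples each). CON 1+4 and CON 6 stood out with 36.6 and 36.7% of GABARAPL1, against 13.3 to 25.4% in the other 8 samples. MAP1LC3A took 11.6 ± 2.95% in CON and 14.02 ± 3.04% in MET, and MAP1LC3B 1.64 ± 0.0729% and 1.66 ± 0.192%. GABARAP was thus the largest part of the family in each sample, and MAP1LC3B the smallest. These shares are a description and were not tested.

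**Figure D4:**
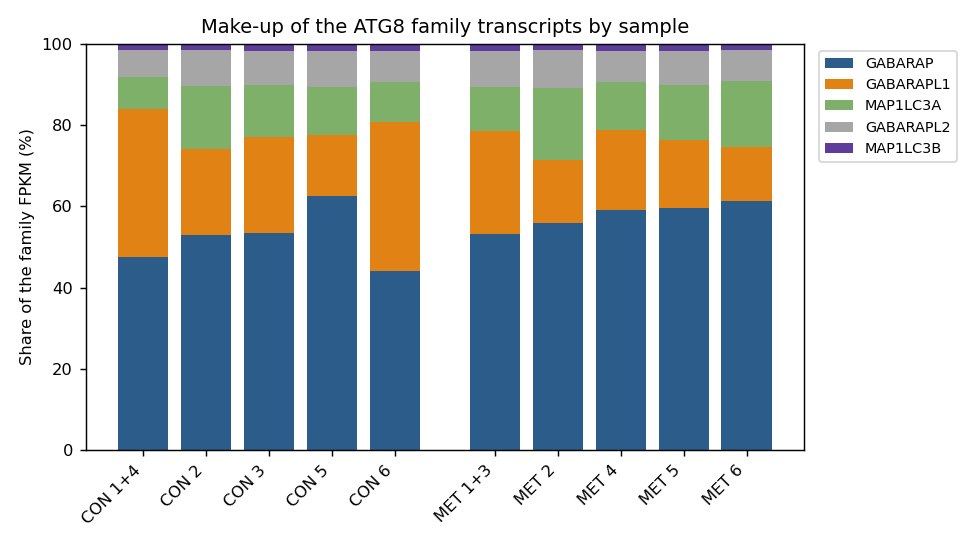
Share of each ATG8 family member in the summed FPKM of the family (stacked bars to 100%), for the 5 CON samples on the left and the 5 MET samples on the right. GABARAP is the largest part of every bar, and GABARAPL1 takes 36.6 and 36.7% in CON 1+4 and CON 6.

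Among the cargo receptors, SQSTM1 (chr7:1334556-1346175, minus strand), which carries ubiquitin-tagged cargo and is itself broken down by autophagy, had 256, 222, 151, 209 and 235 CPM in CON and 219, 160.3, 227, 181 and 192 CPM in MET. The lowest sample was CON 3 and the highest CON 1+4, so the CON range enclosed all MET samples. Its log2 fold change was −0.15 ± 0.138, with an edgeR FDR of 0.571 (exact permutation P = 0.452). The receptors NBR1 and OPTN had log2 fold changes of −0.19 and 0.18, with FDR of 0.461 and 0.547. TFEB (chr23:15507091-15539165, minus strand), the transcription factor that drives lysosomal and autophagy genes when it enters the nucleus, had 7.196, 7.67, 5.604, 7.401 and 11.1 CPM in CON and 8.11, 8.2, 8.63, 6.71 and 9.38 CPM in MET. CON 6 was the highest and CON 3 the lowest of all 10. Its log2 fold change of 0.09 ± 0.158 had an edgeR FDR of 0.793 (exact permutation P = 0.603).

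Genes around the core machinery were followed in 5 further lists, whose counts stand against 4.41% of all genes at an FDR of 0.10 in edgeR over the 12 libraries, 10.4% in DESeq2, 20.5% at an unadjusted edgeR P value of at most 0.05 and 3.72% without overlap over the 10 samples. Of 11 further core genes, 0 passed the FDR in edgeR and 0 in DESeq2. At the unadjusted P value 2 of them, WDR45 and TECPR1, were greater (log2 fold changes of 0.25 and 0.34) and none was lower.

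Of 18 other genes for cargo receptors and their regulators, 2 fell and 0 rose by the edgeR FDR, and 3 passed in DESeq2. The kinases PINK1 and TBK1 and the ubiquitin ligase adaptor KEAP1 are among the 18 and are not cargo receptors. BNIP3L, a receptor for mitochondria, had 110.4, 126, 103, 108 and 120.5 CPM in CON and 94.8, 85.9, 97.2, 85.5 and 92.4 CPM in MET, without overlap, with a log2 fold change of −0.30 ± 0.0862 and an FDR of 0.0891. STBD1, which binds glycogen, fell by 0.52 on the log2 scale (FDR of 0.0855), from 191 ± 34.2 CPM to 138 ± 25.2 CPM. SEC62, a receptor for the endoplasmic reticulum, just missed the threshold in edgeR and passed in DESeq2 (log2 fold change of −0.26, FDR of 0.103 and 0.00055), and its diets did not overlap. The unadjusted P value was at most 0.05 in 7 of the 18, or 38.9%, with 6 lower (CALCOCO1, WDFY3 and CCPG1 beside the 3 above) and PHB2 greater. With the length trend removed it was so in 4 of the 18 (BNIP3L, STBD1, SEC62 and CCPG1).

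Of the 13 genes for fusion with the lysosome, 1 passed the edgeR FDR, VPS18, a subunit of the tethering complexes, which rose by 0.42 ± 0.108 on the log2 scale (FDR of 0.0734). In DESeq2 3 passed, with the tethering subunit VPS16 and the SNARE protein gene STX17 beside it. Both were without overlap between diets, VPS16 greater in MET (0.27, edgeR FDR of 0.133) and STX17 lower (−0.27, edgeR FDR of 0.127). With the length trend removed over the 12 libraries, VPS16 was at 0.31 and STX17 at −0.13 (unadjusted edgeR P values of 0.00713 and 0.138).

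Of 33 lysosomal enzymes and membrane proteins 0 passed in edgeR and 1, CD63, in DESeq2. At the unadjusted P value the membrane protein CD63 and the proton pump subunit ATP6V0D1 were greater (log2 fold changes of 0.29 and 0.27), and the enzyme GLB1 and the cholesterol transporter NPC1 were lower (−0.31 and −0.69). With the length trend removed, CD63 was at 0.14, ATP6V0D1 at 0.22 and GLB1 at −0.29, with unadjusted edgeR P values of 0.114, 0.0867 and 0.0571. Of 17 genes for upstream kinases, other subunits of their complexes and transcription factors, PPARA, the fasting-responsive nuclear receptor, was the one that passed, in edgeR and in DESeq2, with 18.6, 16.6, 18.9, 15.9 and 19.6 CPM in CON and 15.4, 10.2, 13.9, 13.9 and 12.2 CPM in MET. It did not overlap between diets and fell by 0.42 on the log2 scale (FDR of 0.0849). At the unadjusted P value MLST8 and PRKAG1 were greater (0.28 and 0.29) and FOXO1 lower (−0.19). Over the 10 samples their unadjusted P values were 0.0804, 0.124 and 0.0802, and with the length trend removed the log2 fold change of FOXO1 was −0.08 (unadjusted edgeR P value of 0.378). In the other lists, CALCOCO1, WDFY3, PHB2 and ATP6V0D1 likewise had unadjusted P values above 0.05 over the 10 samples (0.0624 to 0.0989). Over the 10 samples BNIP3L, STBD1, VPS18 and PPARA had FDR between 0.178 and 0.214. With the length trend removed over the 12 libraries, VPS18 kept an FDR of 0.0858 in edgeR, while BNIP3L, STBD1 and PPARA had 0.107 to 0.163, and the unadjusted P values of WDR45, MLST8 and PRKAG1 were 0.0544 to 0.0707.

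Of the 42 cell type markers tested, 4 passed an FDR of 0.10 over the 12 libraries in edgeR (APOB, C1QB, LUM and CFTR), against 4.41% of all genes, and 9 in DESeq2, against 10.4%. The 9 lay in part together: 3 of 8 hepatocyte genes (ALB, APOB and TAT) were lower in MET and 3 of 8 Kupffer cell and macrophage genes (CD68, C1QA and C1QB) greater, beside LUM and CFTR, which were lower, and the neutrophil gene S100A12, which was greater. ALB, the most abundant of them, had 62220 ± 13400 CPM in CON and 39450 ± 8761 CPM in MET, with a log2 fold change of −0.65 and an FDR of 0.107 in edgeR and 0.0106 in DESeq2. In edgeR none did over the 10 samples, where APOB had an FDR of 0.189, C1QB of 0.214, LUM of 0.211 and CFTR of 0.195, nor over the 12 libraries with the length trend removed (0.374 for APOB). In bulk tissue fewer cells of a type and less RNA per cell cannot be told apart. The summed level of 8 hepatocyte genes was 53470 to 89570 CPM in CON and 46590 to 72040 CPM in MET, with medians of 83170 and 47290 CPM, and most of it was ALB. The sum of the other 7 hepatocyte genes was 14370 to 19580 CPM in CON and 11050 to 20750 CPM in MET, with medians of 17390 and 16290 CPM. The sum of the 8 Kupffer cell and macrophage genes was 1133 to 1581 CPM in CON and 1333 to 1789 CPM in MET. Of 7 stellate cell and fibroblast genes 1, LUM, fell in edgeR, from 12.7 ± 3.09 to 7.86 ± 2.89 CPM, as did CFTR, 1 of the 4 bile duct genes tested, from 10.3 ± 2.51 to 7.07 ± 1.02 CPM. The summed level was 596.5 to 937 CPM in CON and 456 to 810.3 CPM in MET for the 7 stellate cell genes, and 50.7 to 78.0 and 30.5 to 67.7 CPM for all 5 bile duct genes. None of the genes tested for endothelium, lymphocytes, neutrophils or erythroid cells passed in edgeR. Their sums in CON and MET were 284.8 to 483 and 257 to 451 CPM for endothelium, 15.4 to 25.7 and 16.7 to 29.6 CPM for lymphocytes, and 12.8 to 46.1 and 13.6 to 143 CPM for neutrophils. S100A12 had 12 ± 6.32 CPM in CON and 31.6 ± 26.2 CPM in MET, with an FDR of 0.138 in edgeR and 0.0969 in DESeq2. The sum of 11 erythroid genes, of which CA1 was at 0 in every library, ranged from 7.63 to 963 CPM in CON and from 57.3 to 460.4 CPM in MET. CON 1+4, the highest sample in the 10 autophagy genes named above, was the lowest of the 10 in that erythroid sum and in the sum of the Kupffer cell and macrophage genes (1133 CPM, against 1333 CPM or more in the others), and the lowest but one in the endothelial sum (284.8 CPM). In the hepatocyte sum it was the highest but one (88890 CPM), after CON 6 (89570 CPM). In the stellate cell, bile duct, lymphocyte and neutrophil sums it lay within the range of the other samples. The part of cell composition in the differences of ATG14, GABARAPL1 and the ATG4 genes was not tested.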

How the data were processed

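Stranded single-end mRNA libraries of calf liver shared 1 sequencing lane. The authors mapped the reads with STAR (v2.5.3a) to UMD 3.1.1, a bovine assembly, counted them with featureCounts of Subread (v1.5.2), and deposited raw counts per Entrez gene without normalization. Depth was 8277789 to 10397604 counted reads per library. Floors in CPM cover counting error only, since reads carried no molecular identifiers.

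Samples were grouped by label. Counts were analyzed with edgeR 4.0.16 in R 4.3.3: default filter (minimum count 10, minimum total 15), TMM normalization, a quasi-likelihood F-test with diet alone, and Benjamini-Hochberg adjustment over 13212 genes, with FDR at most 0.10 as threshold. CPM used these TMM factors, and FPKM the exon lengths in the files. Library pairs CON 1 and 4 and MET 1 and 3 were averaged for means ± SD and summed for the test over 10 samples (13242 genes). P values over the 10 samples measure the spread between these samples, while those over the 12 libraries count the near-identical libraries as separate. Exact two-sided permutation tests used all 252 arrangements of the 10 samples on log2 CPM (prior count 2). No exact P value was adjusted. They were computed for the 35 genes, and also for the tested genes of the other lists and the tested markers, for which none is printed. Symbols came from RefSeq (ARS-UCD2.0, a later assembly), from which no position was used. On the other strand, 6 of the 35 genes overlap exons of another gene, and the counting was by strand.

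All 35 genes are named. Values in every sample are given for the ATG8 family, SQSTM1, ULK1, BECN1, ATG5, TFEB and each gene with an unadjusted P value of at most 0.05, and also for WIPI1. WIPI1, the genes of the other lists named by an unadjusted P value, the markers named and the ratios between genes were chosen after the values were seen. From the other lists, genes with an FDR of at most 0.10 are named. The genes and lists were chosen with earlier results of these data known. Alternatives were other normalizations, DESeq2 1.42.0, voom of limma 3.58.1, other filters, removal of the trend on gene length (loess, span 0.5), a replicate block, and each library left out. Figures were drawn with Python 3.11.15 and matplotlib 3.10.9. The steps were tested on simulated data.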

Additional observations from a re-analysis of the deposited data

Results flagged for a closer look

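In 3 of the 70 groups of 5 samples (35 genes in each diet), 1 sample lay far from the others by Dixon's criterion, with a gap to its nearest neighbour above 0.71 of the range, and chance alone gives about 5% of such groups. ATG2A, a lipid transfer protein of the growing membrane, had 45.8 CPM in CON 1+4, against 21.2 to 26.9 CPM in the other CON samples. Its paralog ATG2B had 33.4 CPM in MET 6, against 20.5 to 24.1 CPM in the other MET samples. MAP1LC3A had 85.1 CPM in CON 2, against 55.9 to 61.0 CPM in the other CON samples.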

How the results depend on the processing

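The number of autophagy genes with an FDR of at most 0.10 was 1 over the 12 libraries and 0 with library size only, voom, no filter on low counts, a filter at CPM above 0.5 in at least 2 libraries, the length trend removed, the 10 samples, the 10 samples with the length trend removed, and the replicate block. It was 2 in DESeq2 (ATG14 at 0.0465 and GABARAPL1 at 0.0769, against 10.4% of all genes), and 0 to 1 with 1 library left out. The number with an unadjusted P value of at most 0.05, 7, became 4 with library size only and 4 with the replicate block, and 4 to 7 with 1 library left out (4 without MET 4). In the fit over 9 samples without CON 1+4, an alternative chosen after seeing the data, these numbers were 0 and 4, and 0 genes of all passed the FDR (1999 had an unadjusted P value of at most 0.05). The median log2 fold change moved from −0.06 to 0.041 over the 10 samples with the length trend removed. With library size only, 1 gene (ATG14) did not overlap between diets. Over all genes the number at an FDR of at most 0.10 was 583, and 107 with library size only, 1314 in DESeq2, 238 without a filter, 245 with the length trend removed, 0 over the 10 samples with and without the length trend (2165 at an unadjusted P value of at most 0.05 without it), 6 with the replicate block, and 26 to 565 with 1 library left out, the lowest without CON 1. It was 35 without CON 4 and at most 376 without any other library than CON 2 or CON 5. The cause of these shifts was not tested. Replicate numbers did not visibly pair the calves (correlations of −0.190 to 0.148 between libraries of one number, and 0 of 6 numbers correlated best with their own). These correlations cannot exclude a source shared by number, since they are few and near-identical libraries carry different numbers. By the labels, the second index of CON 1 was that of MET 1. What the block removes was not tested. Of 840 fold changes of single genes under 24 alternatives, 23 had another sign than in the comparison reported. Depth limits ATG5 most, with as few as 8 reads in a library.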

Other observations

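Ratios between related genes within a sample do not depend on the scaling of libraries. They were formed for 6 pairs chosen after the values had been seen and are given without a test. The FPKM ratio of ATG4A to ATG4B, both proteases of the same family with annotated lengths of 1191 and 1174 bases, was 0.700, 0.887, 0.883, 0.757 and 0.923 in the CON samples 1+4, 2, 3, 5 and 6. In the MET samples 1+3, 2, 4, 5 and 6 it was 0.534, 0.530, 0.480, 0.455 and 0.255. The diets did not overlap in this ratio, although they did in each of the genes, and the means were 0.830 ± 0.0962 in CON and 0.451 ± 0.115 in MET (SD, n = 5). ATG4A was already lower and ATG4B greater in MET at the unadjusted P value over the 12 libraries. A separation of their ratio is therefore partly built in and adds no support for a change in either gene. How often ratios of other gene pairs separate was not examined. The ratio of ATG14 to UVRAG, the alternative partners of BECN1, was 0.568 ± 0.0849 in CON and 0.431 ± 0.0548 in MET, with MET 6 at 0.522 above CON 3 at 0.463 and CON 5 at 0.497. That of ULK1 to ULK2 was 4.62 ± 1.23 in CON and 4.17 ± 1.15 in MET. That of ATG4D to ATG4A was 0.971 ± 0.413 in CON (0.543 to 1.64) and 1.96 ± 0.652 in MET (1.39 to 3.07), with CON 1+4 within the MET range. GABARAP to MAP1LC3B was 31.9 ± 4.26 in CON and 35.3 ± 5.37 in MET, and MAP1LC3A to MAP1LC3B 7.11 ± 1.77 and 8.695 ± 2.85, with overlap in both.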
